A study of Mus musculus with 57 samples.

Results

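The comparison described here is the step from the late 1-cell to the early 2-cell stage in control mouse embryos, 3 samples labelled Early2c_MT2Mm_ctrl (Early2c) against 3 labelled Late1c_MT2Mm_ctrl (Late1c). Its members are the rows of a gene expression table with at least 1 FPKM (fragments per kilobase of transcript and per library size) in 3 or more of these 6 samples, which gave 12311 of 59119 rows. Both groups are BDF1 embryos, an F1 hybrid of C57BL/6 and DBA/2, labelled wild type and made by in vitro fertilization, with an age label of 6 to 8 weeks that can only refer to the mice. They are the control arm of an experiment in which Cas9 mRNA and guides to the MT2_Mm repeat were injected into metaphase II (MII) oocytes, and neither whether the controls were injected nor with what is given. The wider study profiled total RNA over mouse preimplantation development, and 2 other sets of its wild-type libraries are used for comparison. They are C57BL/6 embryos at 8 stages from the MII oocyte to the blastocyst, 2 samples a stage, and BDF1 embryos 14, 17 and 20 h after fertilization, 2 samples a time. The labels name a ribosomal RNA-depleting stranded kit that takes pooled embryos and a kit for small amounts of RNA, without saying which served the controls. They also do not say whether replicates came from separate fertilizations. The p-values of this comparison rest on the spread between replicate samples of that experiment, its knockout samples included, whatever those replicates are.

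As background, the mouse zygote starts with RNA made by the growing oocyte and transcribes little of its own. Much of the maternal RNA is then shortened at its tail and destroyed, while transcription from the embryo's genome begins weakly in the 1-cell embryo and strongly in the 2-cell embryo. The strong wave includes multicopy gene families such as Zscan4, and genes read from long terminal repeats of the MERVL retrovirus, for which MT2_Mm is the terminal repeat.

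The 6 libraries fell into their labelled groups. Pearson's r between log2 values over rows was 0.976 to 0.984 among the Early2c samples, 0.989 to 0.993 among the Late1c samples, and 0.729 to 0.762 between groups. Summed FPKM was 476870 to 520212 in Early2c, against 330501 to 358097 in Late1c. Small RNA genes made up 56.1% to 58.0% of that sum in Early2c, against 40.4% to 42.4% in Late1c, and protein coding genes 28.2% to 30.6%, against 46.5% to 49.4%. A single row annotated as a microRNA gene, Gm23935, alone held 23.0% to 24.6% of the sum in Early2c and 18.6% to 20.2% in Late1c. FPKM keeps no read depth and its denominator is not stated, so values are shares of a library, and a change in embryo number and a change in RNA per embryo cannot be told apart. Zona pellucida genes were present in every library, and markers of other cells were low except for Odf2. That gene, on the sperm list, had 41.9, 41.4 and 39.8 FPKM in Early2c, against 29.1, 31.0 and 26.6 FPKM in Late1c. Of 18 cumulus cell markers 1, Cyp19a1, was a member, and all 18 rows summed to 1.77 to 2.25 FPKM in Early2c, against 2.42 to 3.17 FPKM in Late1c, with 4 and 3 markers at 0 in all samples of the group. Of 14 sperm markers 2, Odf2 and Prm2, were members, the 14 rows summed to 42.6 to 44.9 FPKM in Early2c, against 31.5 to 35.3 FPKM in Late1c, and 9 against 5 markers were at 0, Prm1 among them in both groups. Of 12 blood and connective tissue markers 2, Cd68 and Pecam1, were members, the 12 rows summed to 4.37 to 5.9 FPKM in Early2c, against 5.2 to 6.16 FPKM in Late1c, and 4 against 5 were at 0, both beta-globin genes among them. Their part in the results was not tested.

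Most expressed rows differed between the stages, more of them lower than higher in Early2c. In a limma fit on log2(FPKM + 0.5) over 13180 rows, 79.2% passed a Benjamini-Hochberg adjusted p of 0.05, 33.5% of rows higher and 45.7% lower in Early2c. Among the 12311 members 9887 passed (80.3%), of which 4130 rose (33.5% of members) and 5757 fell (46.8%). The 3 samples of each group did not overlap in 4134 members higher (33.6%) and 5785 lower (47.0%) in Early2c. A change of at least 2-fold was passed by 1764 members that rose (14.3%) and 2417 that fell (19.6%), whereas 5706 of the calls were under 2-fold. The median difference over members was -0.16 on the log2 scale. That balance depends on scaling, because scaling each library by the median of its ratios to the mean library moved the median by 0.241 and turned the split to 5333 higher and 4520 lower, with 54.1% of calls higher in place of 41.8%. Scaling to equal protein coding sums moved the median by 0.148 and gave 4847 higher and 4975 lower. Members that reached 1 FPKM in all 6 samples numbered 8746, and among these 2413 rose (27.6%) and 4413 fell (50.5%), with 324 (3.7%) and 1715 (19.6%) past 2-fold.

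The rises and the falls differed in level. The 1764 members that rose at least 2-fold had a median of 4.22 FPKM in Early2c and 0.0982 FPKM in Late1c, and 1402 of them averaged under 1 FPKM in Late1c. The 2417 that fell at least 2-fold had a median of 2.46 FPKM in Early2c and 8.47 FPKM in Late1c. Thus the large rises were mostly rows near 0 in Late1c, and 1847 of the 2417 large falls (76.4%) still averaged at least 1 FPKM in Early2c. Changes of at least 8-fold were passed by 576 members that rose and 43 that fell. The 576 had a median of 8.65 FPKM in Early2c and 0.0589 FPKM in Late1c. In all, 209 members were listed at 0 in every Late1c sample and 5 in every Early2c sample. Since a row could become a member through 1 group alone, 1495 members reached 1 FPKM in all Early2c samples and no Late1c sample, and 824 in all Late1c samples and no Early2c sample, and these had to differ.

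**Figure D1:**
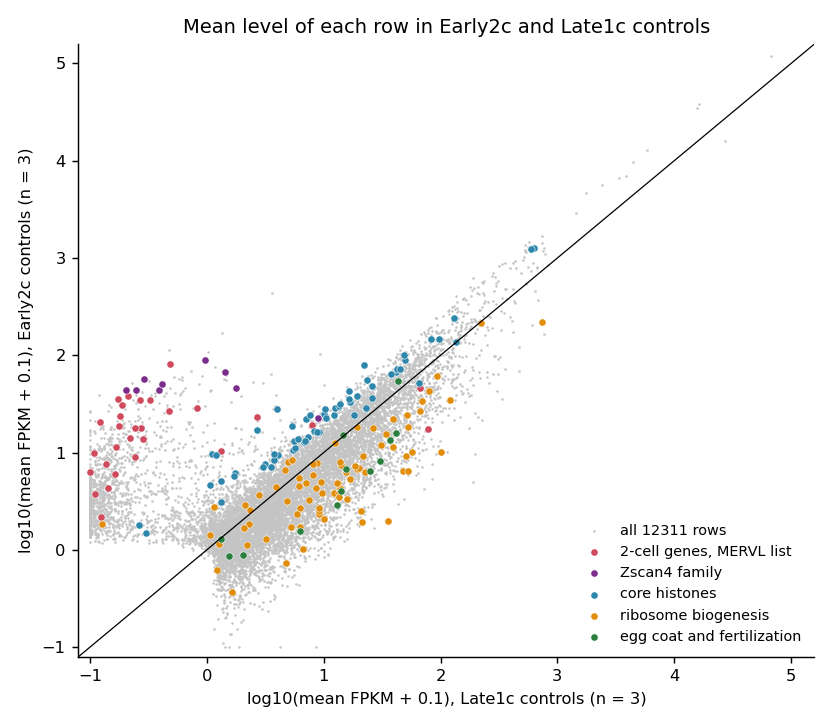
Mean level of each of the 12311 members in Early2c (vertical axis) and Late1c (horizontal axis), as log10(FPKM + 0.1), means of 3 samples a group, with 5 gene lists in colour and a line of equal level. Most of the Zscan4 family and of the MERVL list stand toward the left, low in Late1c and higher in Early2c. Zscan4-ps1 stands further to the right but above the line. Arg2 and Zfp750 were lower in Early2c than in Late1c and lie under the line. Most genes of ribosome biogenesis and the egg coat lie under the line.

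The Zscan4 family, zinc finger genes whose products are known for telomere maintenance and mark 2-cell embryos, rose as a block. The 9 rows lie on chr7 between positions 10794242 and 11614112 (GRCm38), and all 9 rose, with a median difference of 5.96 against -0.16 over members. Summed over the family, the level was 447 to 472 FPKM in Early2c, against 13.5 to 14 FPKM in Late1c. The 8 rows Zscan4a to Zscan4f, Zscan4-ps2 and Zscan4-ps3 differed by 4.43 to 6.37. Zscan4f (chr7:11397915-11402318, plus strand) had 87.8, 92.5 and 85.1 FPKM in Early2c, against 0.925, 0.909 and 0.74 FPKM in Late1c. Its groups lay far apart, with a log2 difference of 6.04 ± 0.08 (SE) and an adjusted p of 7.3e-14 (limma). Zscan4-ps1 stood apart, at 25, 19.7 and 23.5 FPKM in Early2c, against 9.1, 8.94 and 8.53 FPKM in Late1c, a difference of 1.305 ± 0.10 (SE), and it was already the highest family member in Late1c. These copies are nearly identical, and how reads were shared among them is not stated, so the sum is firmer than any single row.

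Genes on a list of 2-cell genes, of which a part have a MERVL promoter (the MERVL list), rose almost without exception. Which of them have such a promoter is not annotated in the files used here. Of 29 on the list, all members, 27 rose and 2 fell, with a median of 4.40. Gm4340 (chr10:104194042-104196522, plus strand, a 2-exon gene) had 85.7, 79.8 and 76.6 FPKM in Early2c, against 0.439, 0.294 and 0.422 FPKM in Late1c, a difference of 6.52 ± 0.09 (SE). Zfp352, an early embryonic zinc finger gene, had 34.9, 38.7 and 40.2 FPKM in Early2c, against 0.115, 0.0773 and 0.14 FPKM in Late1c. Both genes were close to 0 in every Late1c sample and above 30 FPKM in every Early2c sample. Arg2, a mitochondrial arginase, was one of the 2 that fell, with 16.3, 19.4 and 16.5 FPKM in Early2c, against 82.8, 70 and 83.3 FPKM in Late1c, and the other was Zfp750, at 46.5, 45 and 45 FPKM in Early2c, against 61.8, 73.1 and 64.9 FPKM in Late1c.

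Other multicopy families moved the same way. All 8 Eif1a-like genes, copies related to the translation initiation factor gene Eif1a, rose (median 5.49), and their sum was 205 to 230 FPKM in Early2c, against 0.902 to 1.49 FPKM in Late1c. Of these 8 genes 5 also stand on the MERVL list. Gm8332, a single-exon gene at chr12:88249666-88250100 on the minus strand, had 115, 117 and 104 FPKM in Early2c, against 0.348, 0.425 and 0.361 FPKM in Late1c, the largest rise of any member with at least 5 FPKM in Early2c and groups that do not overlap, at 7.004 ± 0.19 (SE) with an adjusted p of 1.6e-11. The 5 Usp17l genes, which encode deubiquitinating enzymes, all rose (median 5.08), with a sum of 171 to 183 FPKM in Early2c, against 2.59 to 3.42 FPKM in Late1c. The sums of the 2 groups did not overlap in either family. A list of 39 Obox4 pseudogene rows on chr7 was drawn up after their values were seen. Of these 24 were members, all 24 rose (median 4.90), and the 24 summed to 677 to 786 FPKM in Early2c, against 6.39 to 6.99 FPKM in Late1c, more than the Zscan4 family in Early2c. With such low Late1c sums, most Eif1a-like, Usp17l and Obox4 rows could become members only through Early2c. Those rows had to be higher there, so the counts of rises in part follow from the member rule. The highest, Obox4-ps23, had 150.3, 176 and 176 FPKM in Early2c, against 1.22, 1.39 and 1.15 FPKM in Late1c. Obox4-ps35, annotated as a long noncoding RNA gene, had 19.3, 24 and 21.8 FPKM in Early2c and was listed at 0 in all 3 Late1c samples. A list of Pramel and Pramef genes, leucine-rich repeat families active in germ cells and early embryos, was also drawn up after values were seen, and 6 of its 9 members rose and 2 fell. Pramef25 rose most, with 16.8, 18.2 and 18.1 FPKM in Early2c, against 0.108, 0.223 and 0.0915 FPKM in Late1c.

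**Figure D2:**
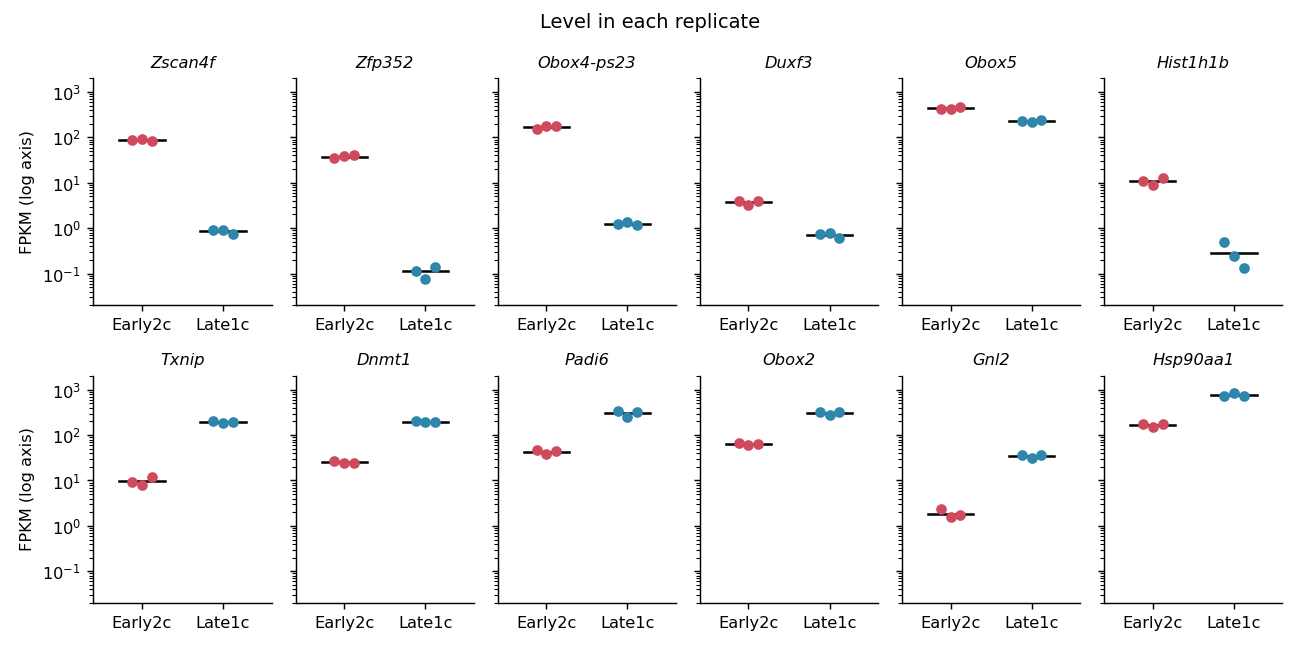
FPKM in each sample, on a log axis, for 12 named genes, with Early2c left of Late1c, a point for each of the 3 replicates and a bar at the group mean. The top row shows genes that rose, such as Zscan4f, with 85.1 to 92.5 FPKM in Early2c against 0.740 to 0.925 FPKM in Late1c, and the bottom row genes that fell, and in none of the 12 do the groups overlap.

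The homeobox genes of the 2-cell list split. Of 12 members 6 rose, 1 fell and 5 did not pass. Duxf3, better known as Dux, a double homeobox factor that binds MERVL repeats in mouse cells, had 4.04, 3.19 and 3.88 FPKM in Early2c, against 0.749, 0.793 and 0.597 FPKM in Late1c, a difference of 1.79 ± 0.14 (SE). Oocyte-specific homeobox genes ran both ways. Obox5 rose by 0.93 ± 0.06 (SE) and had 426, 433 and 459 FPKM in Early2c, against 236, 217 and 238 FPKM in Late1c, while Obox2 fell by 2.29 on the log2 scale, with 67.1, 59.8 and 63.1 FPKM in Early2c, against 323, 280.3 and 331 FPKM in Late1c. Obox3 (difference 3.30), Obox6 (2.53) and Crxos (2.18) rose to levels of 1.44 to 6.47 FPKM in Early2c, against 0 to 0.220 FPKM in Late1c. Obox1 did not pass, with 254, 238 and 266 FPKM in Early2c, against 271, 233 and 265 FPKM in Late1c, nor did Obox7 (adjusted p 0.0524) or Duxbl1, Duxbl2 and Duxbl3, Dux-like genes at 4.28 to 5.24 FPKM in Early2c and 4.38 to 5.47 FPKM in Late1c. Under scaling by the median of ratios the Duxbl genes and Obox1 turned from slightly lower to higher, and 10 of the 12 passed as higher. Obox1, Obox2 and Obox3 overlap in the annotation, so their reads may be shared.

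The promoters of the strongest rises could be read only in part. RefSeq promoter windows (GRCm38.p6, 250 bases before to 50 after the gene start) were matched by symbol for 107 of the 576 members that rose at least 8-fold, or 18.6%, and for 92 of the 164 protein coding ones, 56.1%, so the windows stand for a part of these rises only. Among the 107, 14-letter words present in promoters on several chromosomes were looked for after the values were seen, on both strands, and 2 words are given here because they recur in genes that rose together.
first word: CACACCTTTAATCT
second word: ATAAGGACATTGGA
The first word occurs in 34 of all 27025 genes with a promoter window (0.126%), and in 19 of the 107 (17.8%), on 7 chromosomes. The second occurs in 27 genes (0.0999%), and in 12 of the 107 (11.2%), on 6 chromosomes. The words do not overlap, and 21 genes hold both, 11 of them among the 107. A run of neighbouring genes on chr10, with Gm21304 and Gm4340 among them, holds the words at the same positions, -122 and -29 from the gene start. Such neighbours were counted as separate genes, so the shares and positions given here and below do not come from independent genes. The windows of 7 genes are shown with both words in capitals, 5 that rose on different chromosomes, 1 holder that fell and Zscan4c, which rose and holds neither.
Gm4340, chr10:104193792-104194091, plus strand: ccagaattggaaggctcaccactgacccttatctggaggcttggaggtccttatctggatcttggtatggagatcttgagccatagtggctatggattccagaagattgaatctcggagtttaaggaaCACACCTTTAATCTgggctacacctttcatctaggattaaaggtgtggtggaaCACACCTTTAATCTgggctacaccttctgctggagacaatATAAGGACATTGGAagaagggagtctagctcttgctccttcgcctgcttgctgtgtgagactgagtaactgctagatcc
Gm12724, chr4:106236872-106237171, plus strand: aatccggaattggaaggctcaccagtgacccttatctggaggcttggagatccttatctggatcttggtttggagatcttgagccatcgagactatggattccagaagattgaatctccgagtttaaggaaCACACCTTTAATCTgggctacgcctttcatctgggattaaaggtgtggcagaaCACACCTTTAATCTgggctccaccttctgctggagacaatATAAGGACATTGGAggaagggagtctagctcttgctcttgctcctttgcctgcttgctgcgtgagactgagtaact
Gm33248, chr7:129667175-129667474, plus strand: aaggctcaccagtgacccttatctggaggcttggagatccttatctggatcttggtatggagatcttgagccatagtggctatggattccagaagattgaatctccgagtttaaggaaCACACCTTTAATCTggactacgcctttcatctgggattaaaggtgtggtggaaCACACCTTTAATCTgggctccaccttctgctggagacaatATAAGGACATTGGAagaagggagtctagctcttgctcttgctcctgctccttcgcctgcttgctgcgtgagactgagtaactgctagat
Gm16381, chr12:87648934-87649233, minus strand: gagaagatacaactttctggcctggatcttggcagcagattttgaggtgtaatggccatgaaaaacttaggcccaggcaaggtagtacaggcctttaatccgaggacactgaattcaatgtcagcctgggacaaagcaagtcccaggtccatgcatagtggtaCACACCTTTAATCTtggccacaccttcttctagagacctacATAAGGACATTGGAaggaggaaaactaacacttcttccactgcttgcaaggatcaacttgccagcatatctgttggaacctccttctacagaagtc
Gm35974, chr16:3468210-3468509, plus strand: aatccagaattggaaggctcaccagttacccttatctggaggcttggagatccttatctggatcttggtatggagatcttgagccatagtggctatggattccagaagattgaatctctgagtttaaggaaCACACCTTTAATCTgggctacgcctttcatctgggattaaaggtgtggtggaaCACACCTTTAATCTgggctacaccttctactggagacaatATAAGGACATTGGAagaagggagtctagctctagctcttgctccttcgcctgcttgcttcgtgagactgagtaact
Sp110, chr1:85603842-85604141, minus strand: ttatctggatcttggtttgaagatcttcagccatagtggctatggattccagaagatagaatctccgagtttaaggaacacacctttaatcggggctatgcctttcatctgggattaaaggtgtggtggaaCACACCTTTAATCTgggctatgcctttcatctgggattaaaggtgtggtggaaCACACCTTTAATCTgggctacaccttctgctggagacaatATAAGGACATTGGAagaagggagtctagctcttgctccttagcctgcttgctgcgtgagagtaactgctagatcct
Zscan4c, chr7:11005495-11005794, plus strand: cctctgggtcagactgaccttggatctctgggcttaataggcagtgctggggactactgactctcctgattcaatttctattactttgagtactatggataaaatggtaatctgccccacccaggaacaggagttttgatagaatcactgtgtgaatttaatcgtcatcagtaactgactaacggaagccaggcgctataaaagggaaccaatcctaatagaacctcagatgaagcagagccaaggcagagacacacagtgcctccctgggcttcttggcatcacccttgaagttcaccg

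The capitals stand in the same order in each of the first 6 windows, the first word ahead of the second, and in 5 of them the first word occurs 2 times. Counting every annotated start of those 12 genes, 13 windows held the second word, and in 12 it began between positions -50 and -20 from the gene start, with a median at -29. Of 25 members that hold the first word, 24 rose and 1 fell, and of 17 that hold the second 15 rose, 1 fell and 1, Sgk1, did not pass. The words were chosen from genes that rose, so these counts describe the choice. The genes shown above differ widely in level. Gm12724 had 13.8, 15.3 and 14.2 FPKM in Early2c, against 0.0544, 0.156 and 0.0642 FPKM in Late1c, and Gm16381 had 5.37, 6.42 and 7.38 FPKM in Early2c, against 0, 0 and 0 FPKM in Late1c. Sp110, a nuclear body protein gene, carries the same words and fell, with 46.2, 44.3 and 40.2 FPKM in Early2c, against 57.5, 60.1 and 54.3 FPKM in Late1c. Zscan4c holds neither word and had 67, 68.7 and 68 FPKM in Early2c, against 1.36, 1.33 and 1.3 FPKM in Late1c. A match is a match of letters, and which repeat, if any, a window belongs to is not annotated in the files used here.

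The rises of at least 8-fold were spread unevenly over the genome. Rows assembled outside the annotation, 194 of these 576, have no position and are not counted by chromosome. Chr7, which carries the Zscan4 and Obox4 clusters, held 80 of the others, 9.67% of its 827 members. Chr10 followed with 44 (7.91%), chr12 with 32 (7.06%), chr13 with 31 (5.93%), chr3 with 31 (5.82%) and chr4 with 34 (4.58%), whereas no other chromosome passed 3.36%. Neighbouring copies share sequence, so these rows are not independent. The 164 protein coding genes among them were also small, with a median span of 3883 bases and 3 exons, against 26479 bases and 10 exons over all 8961 protein coding members. Single-exon genes were 40 of the 164 (24.4%), against 2.64% of all. Protein coding genes that fell at least 2-fold, 2038 in number, had a median span of 19554 bases and 9 exons, and 1.08% had a single exon.

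The balance of rises and falls differed between transcript classes. Of 8961 protein coding members 2500 rose (27.9%) and 4842 fell (54.0%), with a median of -0.29, and the counts of the protein coding lists are to be read against these shares. Of 744 annotated long noncoding RNA genes 283 rose and 263 fell (median -0.002), and of 835 pseudogenes 419 rose and 247 fell (median 0.33). Rows assembled outside the annotation, named XLOC, rose 632 times and fell 396 times among 1363 (median 0.20). Of 356 small RNA genes 254 rose (71.3%) and 5 fell (median 1.04), and all 37 rows of the mitochondrial genome rose (median 1.15). Under scaling by the median of ratios protein coding genes remained the only one of these classes with more falls than rises, 3801 against 3470, while the long noncoding class turned to 332 rises and 196 falls.

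**Figure D3:**
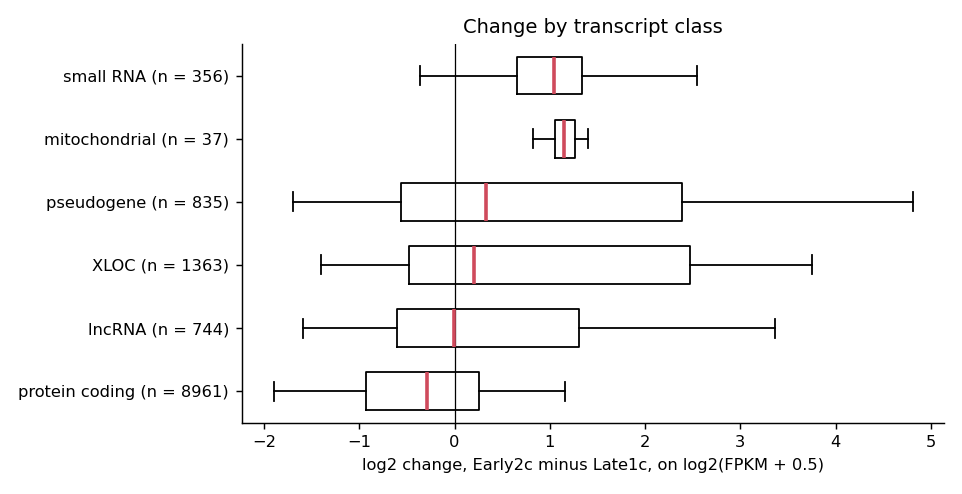
Log2 difference, Early2c minus Late1c, over the members of each transcript class, with the median in red, the box over the middle of the values (25th to 75th percentile) and whiskers to the 5th and 95th percentiles. Protein coding genes centre under 0 (median -0.29), and small RNA genes and the mitochondrial genome above 0 (1.04 and 1.15).

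Among long noncoding RNAs, Malat1, an abundant nuclear RNA, had 29.3, 30.6 and 23.2 FPKM in Early2c, against 4.5, 2.18 and 4.05 FPKM in Late1c, a difference of 2.83 ± 0.20 (SE) with an adjusted p of 5.8e-08. Tug1 did not pass, at 3.54, 3.62 and 3.87 FPKM in Early2c, against 3.44, 3.45 and 3.94 FPKM in Late1c, and Pvt1 fell, at 0.792, 0.871 and 1.07 FPKM in Early2c, against 1.85, 1.5 and 1.53 FPKM in Late1c. The 3 were the members of a list of 15 broadly expressed and X-linked long noncoding RNAs. Larger rises came from unnamed genes. Gm48399 (chr13:78374179-78384198, plus strand, 4 exons) had 27.3, 25.8 and 26.2 FPKM in Early2c and was listed at 0 in each Late1c sample. Gm6507 (chr6:89184672-89186025, minus strand) had 48.5, 40.2 and 35.6 FPKM in Early2c, against 0.0859, 0.255 and 0.198 FPKM in Late1c. Gm1070 (chr6:71293765-71302880, plus strand) fell, with 4.65, 5.35 and 5.72 FPKM in Early2c, against 92.4, 77.5 and 80.8 FPKM in Late1c. Gm16549, antisense to Fndc3a, was listed at 0 in each Early2c sample and had 8.61, 8.44 and 8.36 FPKM in Late1c. Host genes of small nucleolar RNAs rose in 8 of 11 cases and fell in 1 (median 1.32), and several of them overlap the small RNAs they carry. Of 4 pluripotency-associated (Platr) transcripts 2 rose and 2 fell. The fall of Platr14 no longer passed without Early2c replicate 2 (difference -0.27) or without Late1c replicate 3 (-0.21). The highest XLOC riser, XLOC_026438, had 371, 436 and 489 FPKM in Early2c, against 4.52, 3.05 and 3.05 FPKM in Late1c, but in the C57BL/6 libraries it did not pass (difference 2.03, adjusted p 0.271). XLOC_013418 had 36.1, 39.8 and 40.9 FPKM in Early2c, against 0, 0.0608 and 0 FPKM in Late1c and passed there too (6.77). The files give no position or sequence for XLOC rows.

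Structural and catalytic RNAs were more often higher than lower in Early2c. All 10 structural RNAs of polymerase III and telomerase rose (median 1.29), summed at 76100 to 84000 FPKM in Early2c, against 33800 to 35300 FPKM in Late1c. Of 14 rows on a list of small nuclear RNAs, most of them spliceosomal, 9 rose and none fell (median 1.24). The 9 include Rnu3a, a U3 small nucleolar RNA that is not spliceosomal, with uneven Late1c samples (0.0934, 4.54 and 0.0936 FPKM). Of 72 small nucleolar and Cajal body RNAs 40 rose (55.6%) and 3 fell (median 0.89), against the 71.3% of all small RNA members that rose. Of 23 5S ribosomal RNA rows, a list drawn up after values were seen, 22 rose and none fell (median 1.002), with a sum of 3750, 4380 and 5160 FPKM in Early2c, against 2340, 1840 and 2110 FPKM in Late1c. Another 5S row, n-R5s193, is not a member and was very uneven, at 0, 48975 and 58791 FPKM in Early2c, against 0, 0 and 0 FPKM in Late1c, and it is part of the summed FPKM and the small RNA share given above. The 37 mitochondrial rows summed to 32500 to 39500 FPKM in Early2c, against 13700 to 18000 FPKM in Late1c. mt-Co1, a cytochrome oxidase subunit, had 1396, 1369 and 1627 FPKM in Early2c, against 588, 522 and 605 FPKM in Late1c. These values stand beside the lower protein coding share of the FPKM sum in Early2c given above, and their part in the other results was not tested. In the C57BL/6 libraries, compared as E2-cell with Zygote, 1 of 10 structural RNAs was higher and 1 lower, and 14 of 37 mitochondrial rows were higher and 1 lower. Over all members tested there 23.3% were higher and 29.5% lower. Whether the data sets differ was not tested.

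Core histone genes, which are transcribed in S phase and mostly lack poly(A) tails, rose in 56 of 61 cases with none falling (median 1.04). Their sum was 4320 to 5090 FPKM in Early2c, against 2370 to 2490 FPKM in Late1c. Hist1h2an had 30, 26.4 and 26.7 FPKM in Early2c, against 4.18, 3.48 and 3.98 FPKM in Late1c, and Hist1h2ak had 8.45, 7.81 and 12.1 FPKM in Early2c, against 0.96, 1.21 and 0.828 FPKM in Late1c. In the C57BL/6 libraries 9 of 60 passed as higher and none as lower, against 23.3% higher and 29.5% lower over all members tested there. Several of these genes are near-identical copies. Linker histones and variants split, 10 of 18 up and 5 down. Hist1h1b, a somatic linker histone gene, had 11, 8.74 and 12.9 FPKM in Early2c, against 0.498, 0.237 and 0.134 FPKM in Late1c, while H1foo, the oocyte linker histone gene, had 89.6, 97.1 and 109.9 FPKM in Early2c, against 299, 274 and 287 FPKM in Late1c. Hist1h1a, another somatic linker histone gene, was far more abundant and also rose, with 1138, 1166 and 1206 FPKM in Early2c, against 800.3, 675 and 781 FPKM in Late1c. Hist1h1b was thus under 1 FPKM in every Late1c sample while Hist1h1a was above H1foo there, and H1foo fell by 1.53 on the log2 scale.

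Maternal genes did not move as a whole, and among all protein coding members 54.0% fell and 27.9% rose. Of 13 genes of the egg coat, sperm binding and egg activation 10 fell and 1, Fbxo43, an inhibitor of the anaphase-promoting complex, rose by 0.34 on the log2 scale. The list's median was -1.40. Zp3, a zona pellucida glycoprotein, had 6.93, 7.47 and 9.79 FPKM in Early2c, against 34, 25.3 and 31.6 FPKM in Late1c. Mos, the kinase that holds the egg in metaphase, had 1.33, 1.52 and 1.56 FPKM in Early2c, against 6.83, 4.97 and 6.87 FPKM in Late1c. Cd9, a membrane protein needed for sperm fusion, had 2.5, 2.95 and 2.83 FPKM in Early2c, against 12.7, 11.6 and 14.2 FPKM in Late1c, and its groups too were far apart. Of 16 genes of the subcortical maternal complex and its relatives, a protein complex under the egg membrane needed for cleavage, 11 fell and 3 rose (median -0.75). Padi6 had 45.9, 38.2 and 44.4 FPKM in Early2c, against 340, 252 and 317 FPKM in Late1c, a difference of -2.80 ± 0.11 (SE). Zbed3 rose and was the most abundant protein coding gene that did, with 6766, 7201 and 6951 FPKM in Early2c, against 3697, 4186 and 3708 FPKM in Late1c, but 2 small nucleolar RNA genes lie on its strand inside it and reads may be shared. It made up most of the list's sum, which was 7700 to 8070 FPKM in Early2c, against 5550 to 5690 FPKM in Late1c.

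The list of other oocyte genes split too, with 14 of 38 up (36.8%) and 20 down (52.6%, near the 54.0% of all protein coding members; median -0.47). Zar1l, related to the RNA-storage protein Zar1, had 22.5, 20.3 and 21.8 FPKM in Early2c, against 238, 229 and 213 FPKM in Late1c, the largest fall on the list at -3.37 ± 0.05 (SE). Oocyte-expressed Omt2a went the other way with 154, 164 and 182 FPKM in Early2c, against 71.6, 76.2 and 72.2 FPKM in Late1c, and so did Tcl1b1, with 257, 293 and 305 FPKM in Early2c, against 148, 139.7 and 137 FPKM in Late1c. All Early2c samples were above all Late1c samples in both. Genes for the decay of maternal RNA were even, 18 of 40 up and 20 down (median -0.01). Pabpn1l, an oocyte poly(A) binding protein that recruits deadenylases in mouse, had 9.7, 9.68 and 10.6 FPKM in Early2c, against 119, 110.2 and 114 FPKM in Late1c. Its partner Btg4, an adaptor of the CCR4-NOT deadenylase, rose by 0.52 ± 0.05 (SE), with 776, 828 and 834 FPKM in Early2c, against 568, 561 and 567 FPKM in Late1c. Pan3, of the PAN2-PAN3 deadenylase, rose by 0.88 on the log2 scale. Among 29 genes of storage and translational control 9 rose and 17 fell (median -0.32).

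Length and the 3′ end varied with the change among protein coding genes that had at least 5 FPKM in Late1c. The median 3′ untranslated region (GENCODE M21) was 1329 bases in those that rose, 1241 in those not called, 1210 in those that fell under 2-fold, 815 in those that fell 2-fold to 4-fold and 525 in those that fell at least 4-fold. Median coding length ran in the same order, at 1689, 1636, 1494, 1248 and 1138 bases. The cytoplasmic polyadenylation element, written here as TTTTAT or TTTTAAT and searched on the sense strand in the last 100 bases, is known to lengthen the tails of stored RNAs in eggs. It occurred in 328 of 1250 genes that rose (26.2%), in 20.6% of 718 not called, and in 19.5%, 18.6% and 19.1% of those that fell by under 2-fold, 2-fold to 4-fold and at least 4-fold, against 21.1% of all 5021 with an annotated end. No test was made of these shares, and the search for the order by length was made with the values in view. The ends of 3 abundant genes that rose are shown to make the element visible, with the match in capitals.
Zbed3: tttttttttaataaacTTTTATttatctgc
E330034G19Rik: ttaagagaatgTTTTATgaataataaactt
AU022751: taataaagtaagTTTTATtttaaaaattta
The matches begin 14, 38 and 18 bases before the annotated end. E330034G19Rik had 1248, 1245 and 1298 FPKM in Early2c, against 771, 792 and 744 FPKM in Late1c, and AU022751 had 1023, 1037 and 1012 FPKM in Early2c, against 505, 599 and 461 FPKM in Late1c, so both were among the 10 most abundant protein coding genes that rose.

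Most genes on the list of ribosome biogenesis fell. Of 78 genes of ribosome biogenesis and the nucleolus 59 fell and 7 rose (median -1.16), and the members' sum was 1000 to 1070 FPKM in Early2c, against 2480 to 2620 FPKM in Late1c. Gnl2, a nucleolar GTPase of the large subunit pathway, had 2.32, 1.56 and 1.72 FPKM in Early2c, against 37, 32.1 and 36.2 FPKM in Late1c, a difference of -3.92 ± 0.10 (SE). Taf1a, a subunit of the promoter selectivity factor of RNA polymerase I, had 9.7, 10.3 and 9.74 FPKM in Early2c, against 102, 99.9 and 103 FPKM in Late1c. Dnttip2, a nucleolar protein, was among the 15 largest falls, with 3.99, 4.46 and 3.81 FPKM in Early2c, against 73.6, 69.9 and 71.2 FPKM in Late1c. In all 3 genes every Early2c sample lay far under every Late1c sample. Nop16, a nucleolar protein, rose, with 1.28, 1.67 and 2.31 FPKM in Early2c, against 0.0402, 0.0258 and 0.0142 FPKM in Late1c. Ribosomal protein genes fell in 45 of 82 cases (54.9%, close to the 54.0% of all protein coding members) and rose in 23 (median -0.57). Rpl24 had 1.11, 1.35 and 1.07 FPKM in Early2c, against 10.6, 17.1 and 19.4 FPKM in Late1c, and Rpsa rose, with 4.33, 5.64 and 4.45 FPKM in Early2c, against 0.38, 0.693 and 0.997 FPKM in Late1c. In the C57BL/6 libraries 56 of the 82 were lower and 3 higher, against 29.5% lower and 23.3% higher over all members tested there. Many ribosomal protein genes have processed pseudogenes that can share their reads.

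Lists of other growth machinery are given against the same 54.0% lower and 27.9% higher. Of 37 proteasome subunits 29 fell and 5 rose (median -1.53), and Psma7, of the core particle, had 5.22, 5.85 and 6.42 FPKM in Early2c, against 55.1, 48.6 and 55.2 FPKM in Late1c. Of 77 nuclear genes of the respiratory chain 58 fell and 9 rose (median -1.03), and Sdhd, which anchors succinate dehydrogenase in the membrane, had 1.7, 1.88 and 2.32 FPKM in Early2c, against 26.3, 21.1 and 28.4 FPKM in Late1c. Thus most nuclear genes of the respiratory chain and all mitochondrial ones moved in opposite directions. Translation factors fell in 37 of 55 cases and rose in 10 (median -0.57), with Eif3e at 0.811, 0.913 and 0.707 FPKM in Early2c, against 11.1, 9.76 and 11.2 FPKM in Late1c. Cytosolic aminoacyl-tRNA synthetases, a list drawn up after values were seen, fell in 16 of 18 cases and rose in 2 (median -0.89). Rars, which charges the arginine tRNA, had 1.88, 1.41 and 1.39 FPKM in Early2c, against 27.2, 22.9 and 30 FPKM in Late1c. Of 31 subunits of RNA polymerases I, II and III 18 fell (58.1%) and 9 rose (29.0%), again near those shares (median -0.53). Polr2a, the catalytic subunit of polymerase II, rose, with 17.2, 22.5 and 16 FPKM in Early2c, against 5.46, 6.85 and 6.5 FPKM in Late1c, while Polr2k, a small subunit shared by the polymerases, fell, with 1.2, 0.803 and 1.41 FPKM in Early2c, against 16.3, 12.4 and 15.8 FPKM in Late1c. Subunits of 1 enzyme therefore did not move together. Mediator, listed after values were seen, split likewise, with 11 of 29 up (37.9%) and 16 down (55.2%; median -0.43). Med29 had 7.04, 6.87 and 7.24 FPKM in Early2c, against 0.87, 0.816 and 0.952 FPKM in Late1c, and Med17 had 7.3, 7.03 and 6.82 FPKM in Early2c, against 70.6, 66 and 70.8 FPKM in Late1c.

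**Figure D4:**
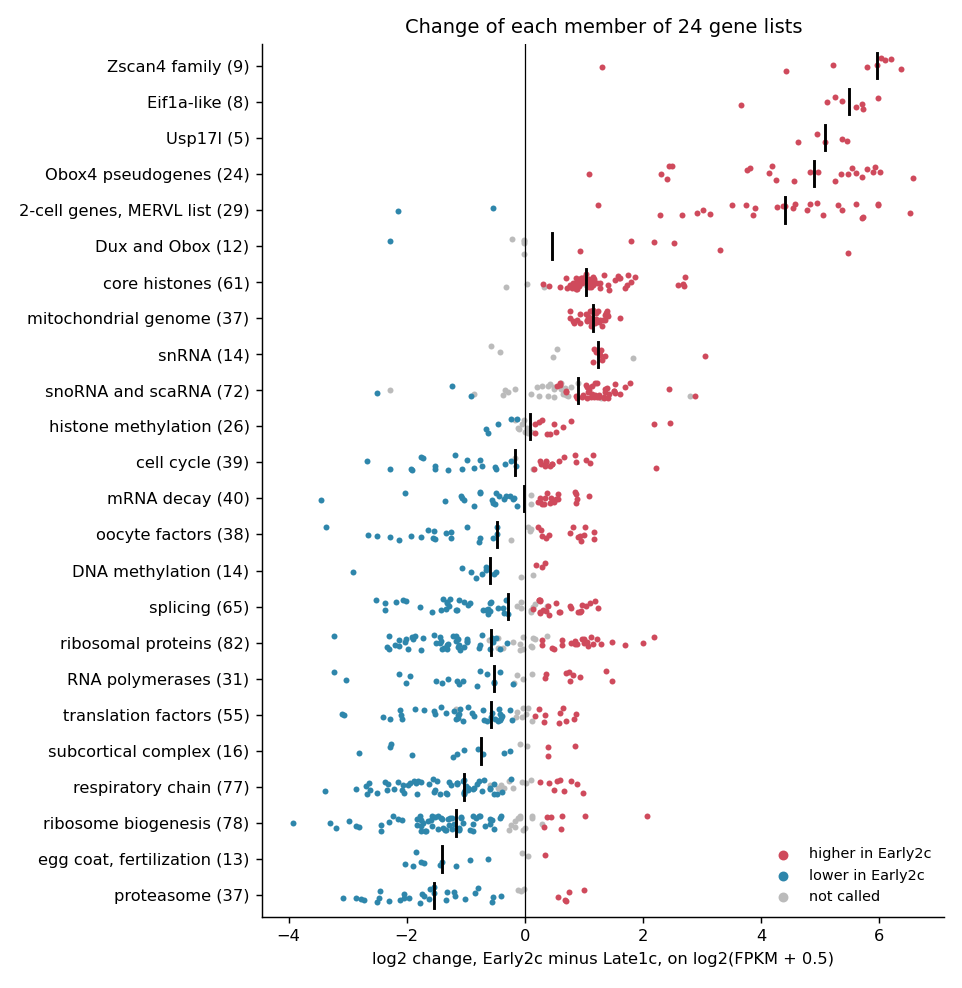
Log2 difference, Early2c minus Late1c, for each member of 24 gene lists with their number of members, a point a gene coloured by its call and a bar at the list's median. The Zscan4 family and the MERVL list lie near 5.96 and 4.40, and ribosome biogenesis and the proteasome near -1.16 and -1.53.

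Some of the genes that fell were higher at the 4-cell stage than in E2-cell of the C57BL/6 series. A member was counted as returning if its 4-cell level was at least 2 times its E2-cell level and at least 5 FPKM. Of the 2417 members that fell at least 2-fold 667 returned (27.6%), and 562 (23.3%) were under 1 FPKM in the 4-cell embryo. All 33 ribosomal protein genes that fell at least 2-fold returned, as did 37 of 45 for ribosome biogenesis, 10 of 11 for polymerase subunits, 16 of 20 for translation factors, 28 of 41 for the respiratory chain, 15 of 24 for the proteasome and 5 of 7 for the tRNA synthetases. By contrast 0 of 7 returned for the subcortical maternal complex, 0 of 14 for other oocyte genes and 1 of 8 for the egg coat list, with splicing at 10 of 19 and Mediator at 4 of 10. The rule does not ask for a fall from Zygote to E2-cell in the C57BL/6 series. The share of all members that meet it is not given, so the counts do not set the genes that fell apart from others. These are counts of levels, with no test.

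Chromatin genes changed gene by gene. Of 14 genes of DNA methylation 9 fell and 3 rose (median -0.59). Dnmt1, the maintenance methyltransferase (chr9:20907209-20959888, minus strand), had 27.3, 24.9 and 24.7 FPKM in Early2c, against 201, 194 and 193 FPKM in Late1c, a difference of -2.91 ± 0.06 (SE) with an adjusted p of 2e-12. Dppa3, which guards maternal methylation in the zygote, rose by 0.28 on the log2 scale, with 818, 789 and 842 FPKM in Early2c, against 693, 638 and 680.5 FPKM in Late1c. Of 26 histone methyltransferases and demethylases 12 rose and 5 fell (median 0.08), or 20 and 3 under scaling by the median of ratios. Kdm5b, a demethylase of lysine 4 on histone H3, had 3.56, 3.46 and 3.05 FPKM in Early2c, against 0.214, 0.186 and 0.199 FPKM in Late1c, and Suv39h1, a methyltransferase of lysine 9, had 1.84, 2.25 and 1.73 FPKM in Early2c, against 0.0485, 0.0492 and 0.0141 FPKM in Late1c. Both rose more than 4-fold on the log2(FPKM + 0.5) scale. Of 45 regulators linked to activation of the embryonic genome 17 rose and 20 fell (median -0.07). Klf5, a zinc finger factor, had 1.9, 1.64 and 2.15 FPKM in Early2c, against 0.048, 0.0495 and 0.0795 FPKM in Late1c, and Nfya, a subunit of the factor NF-Y, fell by 2.22 on the log2 scale. Genes described as early embryonic transcripts were also even, with 10 of 25 up and 11 down. Hspa1a, a heat shock gene known as one of the first transcribed by the mouse embryo, had 8.31, 7.96 and 8.31 FPKM in Early2c, against 1.23, 1.12 and 1.29 FPKM in Late1c.

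Of the remaining lists, all but that of interferon-stimulated genes had members that rose and members that fell. Of 39 cyclin, mitotic kinase and checkpoint genes 17 rose and 20 fell (median -0.17). Cyclin E1 (Ccne1) had 10.6, 10.6 and 9.97 FPKM in Early2c, against 1.72, 1.6 and 2.27 FPKM in Late1c, and the checkpoint kinase Bub1b had 10.1, 10.1 and 11.1 FPKM in Early2c, against 77.9, 59.1 and 72.9 FPKM in Late1c. Heat shock and chaperone genes fell in 17 of 29 cases and rose in 9 (median -0.52), with Hsp90aa1 at 173, 148 and 174 FPKM in Early2c, against 726, 849.6 and 734 FPKM in Late1c. Of 24 nuclear transport genes 10 rose and 7 fell (median 0.10). The importin alpha gene Kpna1 rose, with 3.19, 3.1 and 2.73 FPKM in Early2c, against 0.134, 0.0883 and 0.0446 FPKM in Late1c. Kpna2, another importin alpha gene, fell, with 56.2, 61.4 and 60.2 FPKM in Early2c, against 263, 228 and 258 FPKM in Late1c. Splicing factors rose in 24 of 65 cases and fell in 33 (median -0.29), or 28 and 28 under scaling by the median of ratios. Glycolysis and pyruvate genes were 10 up and 11 down of 21. Of 13 p53 and stress genes 7 rose and 5 fell. Gadd45b, a stress-induced gene, had 7.8, 8.27 and 7.57 FPKM in Early2c, against 0.402, 0.764 and 0.476 FPKM in Late1c, and Ddit4, an inhibitor of mTORC1 signalling, fell by 2.42 on the log2 scale. Of 11 blastocyst lineage factors 3 rose and 5 fell, with Pou5f1 up by 0.36 and Esrrb down by 1.73 on the log2 scale. Of 2 interferon-stimulated members 1 fell. Of 15 genes often used as a reference 7 rose and 5 fell (median -0.03).

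Several of the largest falls among members with at least 5 FPKM in Late1c were from high levels, but not all, since Gm16549, given above, started from a much lower level. Gm813 (chr16:58613675-58616978, minus strand), which has no role given here, had 3.92, 6.12 and 4.62 FPKM in Early2c, against 193, 155 and 216 FPKM in Late1c, a difference of -5.14 ± 0.17 (SE). Txnip, an inhibitor of thioredoxin (chr3:96557957-96561883, plus strand), had 9.19, 7.86 and 11.7 FPKM in Early2c, against 205, 188 and 197 FPKM in Late1c, a difference of -4.30 ± 0.13 (SE). An antisense gene overlaps it. Both stayed above 3 FPKM in Early2c. Gm29103 also passed (difference -3.97), but its Early2c samples were uneven, at 0.746, 35.2 and 1.53 FPKM, against 80.7, 48.5 and 86.6 FPKM in Late1c, and replicate 2 of Early2c lay close to the lowest Late1c sample. Among the most abundant genes Ssb, the La protein that binds new polymerase III transcripts, had 71.5, 63.5 and 70.4 FPKM in Early2c, against 453, 476 and 487 FPKM in Late1c, and Npm2, an egg nucleoplasmin, had 231, 194 and 228 FPKM in Early2c, against 803, 691 and 725 FPKM in Late1c.

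A related step in C57BL/6 embryos, E2-cell against Zygote, uses none of the 6 libraries and gives the members a second reading. The Zygote label gives no hour, so this step may start at another time than the late 1-cell stage. In a limma fit over 19692 rows 44.1% passed, 17.9% higher and 26.2% lower in E2-cell. Of the members 11875 could be tested in both, and 436 could not. Among these 2766 (23.3%) were higher and 3502 (29.5%) lower in E2-cell. Of the 3864 that rose here 2298 (59.5%) were higher there and 71 (1.84%) lower, and of the 5702 that fell here 3121 (54.7%) were lower there and 130 (2.28%) higher. These shared rows were 83.1% of the members higher and 89.1% of those lower in E2-cell. Larger changes were shared more widely. Of 553 that rose at least 8-fold 543 (98.2%) were higher in E2-cell and none lower, and of 2398 that fell at least 2-fold 1774 (74.0%) were lower. Across genes, which are not independent replicates, Pearson's r between the 2 log2 differences was 0.833. The Zygote and E2-cell samples carry tags that may mark batches, of which 1 Zygote sample shares its tag with both E2-cell samples, and the shares above rest on 8685 rows called. A fit with the replicate number as a block called 5231, but it used only the MII, Zygote, E2-cell and L2-cell columns. The effect of the block thus cannot be told apart from that of fewer columns. Leaving out 1 sample at a time gave 6854 (without E2-cell replicate 2) to 9674 (without the Zygote sample of the other tag).

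Some abundant members that fell here did not pass there. Ssb had 117 and 126 FPKM in E2-cell, against 49.9 and 280.3 FPKM in Zygote, a log2 difference of 0.03 with an adjusted p of 1 in limma. Npm2 had 375 and 368 FPKM in E2-cell, against 35.7 and 713 FPKM in Zygote, a log2 difference of 1.21 with an adjusted p of 0.336. For both genes the Zygote samples lay on either side of the E2-cell samples, and the higher was the 1 whose tag differs. Sfr1, a recombination accessory gene that fell by 1.97 on the log2 scale here, had 245 and 264 FPKM in E2-cell, against 138 and 367 FPKM in Zygote. D6Ertd527e was uneven in E2-cell, at 159 and 47.1 FPKM, against 64.7 and 53.3 FPKM in Zygote (adjusted p 0.424). Whether the 2 data sets differ for these genes was not tested, and strain, kit and stage cannot be told apart between them. The 2-cell families passed in both, with 8 of 9 Zscan4 rows, 26 of 29 on the MERVL list, 8 of 8 Eif1a-like genes, 5 of 5 Usp17l genes and 19 of 19 tested Obox4 pseudogene rows higher in E2-cell. Duxf3 differed by 4.06 there and by 1.79 here, and the gap between these values was not tested.

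Set on the C57BL/6 stages, the large rises were highest at the 2-cell stages. Of the 576 members that rose at least 8-fold 566 reached 1 FPKM in a stage. The highest stage of the 566 was E2-cell for 307 (54.2%), L2-cell for 207 (36.6%) and 4-cell for 34 (6.01%). Over all 11928 members that reached 1 FPKM in a stage these shares were 19.4%, 10.6% and 8.36%. The median level of the 576 was 0.00324 FPKM in MII, 0.00719 in Zygote, 4.79 in E2-cell, 5.03 in L2-cell, 1.46 in 4-cell, 0.653 in 8-cell, 0.166 in Morula and 0.0417 FPKM in Blastocyst. In BDF1 embryos the median was 0.0185, 0.0831 and 0.248 FPKM at 14, 17 and 20 h after fertilization, and 29 (5.03%), 43 (7.47%) and 80 (13.9%) of the 576 reached 1 FPKM. Most were therefore still low at 20 h. Duxf3 was earlier than these, with 0.332, 2.69 and 5.79 FPKM at the 3 times, above its Early2c mean by 20 h. Of 2397 members that fell at least 2-fold and reached 1 FPKM in a stage, the highest stage was MII for 820 (34.2%), Zygote for 696 (29.0%) and Blastocyst for 353 (14.7%). Over all 11928 members these shares were 15.6%, 19.7% and 13.9%, so the Blastocyst share of the falls was near that of all. Each stage or time has 2 samples, and no test was made between them.

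**Figure D5:**
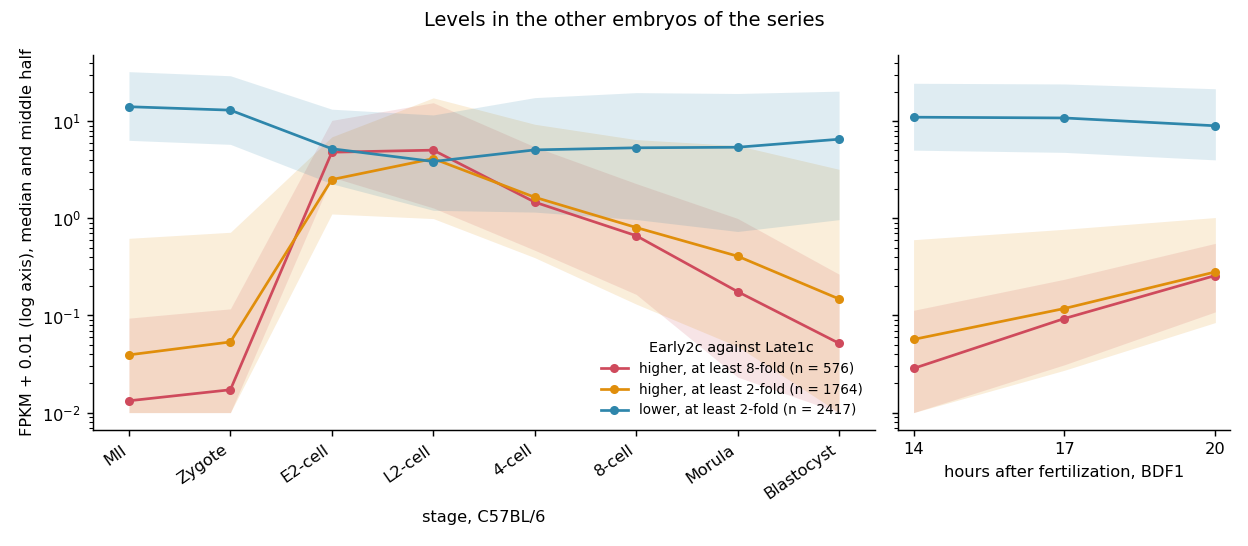
Median FPKM + 0.01 on a log axis, with shading from the 25th to the 75th percentile over members, for those that rose at least 8-fold, rose at least 2-fold or fell at least 2-fold, across the 8 C57BL/6 stages and the 3 BDF1 times. The members that rose at least 8-fold are highest in E2-cell and L2-cell, with medians of 4.79 and 5.03 FPKM, and are back at 0.0417 FPKM in the Blastocyst.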

How the data were processed

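Total RNA of mouse embryos was sequenced with 150-base paired reads, per the labels' protocols. The authors deposited one table of FPKM per gene, made with Cuffdiff 2.2.1, StringTie 1.3.4d, HISAT2 2.1.0, cutadapt 1.18 and Cufflinks on GRCm38, per the submitters' processing notes, which give no role or order. The depth behind the deposited FPKM, its denominator and the sharing of reads among copies are not given in the sources used here, so no counting error can be stated. Of 43 sample columns 9 could not be tied to the labels and were not used.

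Rows with at least 1 FPKM in 3 of the 12 columns of the experiment (2 stages, control and MT2Mm_ko) were fitted with limma 3.58.1 (lmFit, eBayes with a trend, R 4.3.3) on log2(FPKM + 0.5), and the contrast was Early2c minus Late1c controls, two-sided, Benjamini-Hochberg adjusted over all rows tested. The knockout columns served only to estimate the spread. E2-cell minus Zygote was fitted likewise over 16 columns of 8 stages. The pseudocount understates changes of low rows. The fit was tested on simulated data.

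The members, gene lists and words were chosen with earlier results of these data known, and 5 lists and the promoter words after these values were seen. Named were up to 6 genes a list by size of change, the 15 largest rises and falls (5 FPKM or more where higher), the 10 most abundant changed protein coding genes each way, 3 XLOC and 3 long noncoding rows each way, and all Zscan4 and 2-cell homeobox genes. Outside this rule, and chosen after their values were seen, are Arg2, Fbxo43, Gm12724, Gm16381, Gm23935, Gm33248, Gm35974, Kdm5b, Klf5, Kpna1, Med17, Med29, n-R5s193, Nop16, Omt2a, Polr2a, Pramef25, Rpsa, Sgk1, Sp110, Suv39h1, Tcl1b1 and Zfp750. Ensembl rows were annotated with GENCODE M21 (54409 of 54446 found) and promoters came from RefSeq by symbol. Replicate numbers do not pair the samples (residual correlations of same-numbered samples -0.0254, -0.0392 and -0.0333). Alternatives were other pseudocounts, no filter, 2 scalings, the 6 columns alone, a replicate block and leaving out each sample. Tables used Python 3.11.15, NumPy 2.4.6, pandas 2.3.3 and SciPy 1.17.1, and figures Matplotlib 3.10.9.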

Additional observations from a re-analysis of the deposited data

How the results depend on the processing

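The counts of members that rose and fell stayed within 1.5 times under each alternative run, but the split did not, since scaling by the median of ratios gave 5333 higher and 4520 lower. Without any filter on low values 8139 rows were higher in Early2c in place of 4413 of those tested, as more rows entered the fit. Leaving out each sample in turn gave 3965 to 4026 members higher and 5508 to 5695 lower. With the replicate number as a block 4108 members were higher and 5742 lower. In the E2-cell and Zygote fit the block called 5231 rows in place of 8685, but that run also left out the stages from the 4-cell embryo on. Leaving out a sample gave 6854 to 9674, and the cause was not tested. Under scaling by the median of ratios 4 homeobox genes changed sign, namely Duxbl1, Duxbl2 and Duxbl3 to 0.24 each and Obox1 to 0.26, because the whole scale moved by 0.241. Nlrp4f, Platr14 and Tfap2c no longer passed, Snhg18 and Tug1 newly passed, and the other 257 of 266 named rows kept direction and call. That scaling gave 21 up and 13 down for decay factors, 13 up for ribosome biogenesis, 8 up for the proteasome and 4 up and 3 down for lineage factors. Leaving out Late1c replicate 2 made Obox7 pass as lower and 1 core histone pass as lower, and leaving out that sample, Early2c replicate 1 or Early2c replicate 3 left 1 of 2 tRNA synthetases higher. FPKM keeps no depth, so what a level of 0 excludes cannot be stated.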

Other observations

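A set of 48 rows had at least 5 FPKM in Late1c on average but under 1 FPKM in Zygote, in E2-cell and at 14, 17 and 20 h. Of these 29 were small RNA genes, 10 protein coding, 7 pseudogenes, 1 long noncoding and 1 XLOC. n-R5s118, a 5S ribosomal RNA row, averaged 1140 FPKM in Early2c and 537 FPKM in Late1c and was listed at 0 in both E2-cell and Zygote. Bfsp1, a lens filament gene, averaged 118 ± 5.55 FPKM in Early2c and 74.5 ± 4.02 FPKM in Late1c (SD, n = 3 each). Gm10163 averaged 1.66 and 20.0 FPKM.

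In 8 member rows the replicates of a group differed more than 100-fold, and 1 of them, Gm15564, was called. Gm47301, a small RNA row, had 47700, 0.0938 and 0.0808 FPKM in Early2c, against 29800, 24300 and 26900 FPKM in Late1c. H1fx, a linker histone gene, had 0, 11 and 12.8 FPKM in Early2c, against 25.2, 24.3 and 0 FPKM in Late1c. Scarna13 had 76.6, 82.9 and 99.2 FPKM in Early2c, against 57.8, 0 and 64.4 FPKM in Late1c.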
